A study of Mus musculus with 35 samples.

Results

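The 36 genes described here encode ionotropic and metabotropic glutamate receptors and the scaffold proteins that hold them at the postsynaptic density. They were found in the count table by gene symbol and make up 36 of the 32863 genes kept for analysis. All 36 passed the count filter and were tested in every comparison. The list holds 4 AMPA receptor subunits (Gria1 to Gria4), 6 NMDA receptor subunits (Grin1, Grin2a, Grin2b, Grin2c, Grin2d and Grin3a), 5 kainate receptor subunits (Grik1 to Grik5), the delta receptor subunit Grid1 and 6 metabotropic receptors (Grm2, Grm3, Grm4, Grm5, Grm7 and Grm8). The scaffolds are 3 Homer genes (Homer1 to Homer3), 4 genes of the PSD-95 family (Dlg1 to Dlg4), 3 Shank genes (Shank1 to Shank3) and 4 SAPAP genes (Dlgap1 to Dlgap4).

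RNA-seq was performed on the striata of 35 mice aged 21.7 to 23 weeks, with 1 library per mouse. The knock-in allele HttQ111 carries a lengthened CAG repeat in huntingtin, and carriers had constitutive repeats of 110 to 144 CAG. Hdac2 KO mice were homozygous for a floxed Hdac2 allele and carried a Cre transgene driven by the promoter of Ppp1r1b (DARPP-32), which deletes Hdac2 in medium-spiny neurons (MSNs), the principal neurons of the striatum, while other striatal cells retain it. There were 8 Htt+/+ Hdac2 WT mice, 7 HttQ111/+ Hdac2 WT mice, 9 Htt+/+ Hdac2 KO mice and 11 HttQ111/+ Hdac2 KO mice. Hdac2 WT mice were wild-type at Hdac2 and carried no Cre, apart from 2 Htt+/+ Hdac2 WT mice that had 1 floxed allele, also without Cre. Since no Hdac2 WT mouse carried Cre, effects of Cre and of the Hdac2 deletion cannot be told apart.

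MSNs receive their excitatory input from cortex and thalamus on dendritic spines. AMPA receptors carry the fast current at these synapses, NMDA receptors admit calcium when glutamate release and depolarization coincide, and metabotropic receptors act through G proteins. Dlg proteins bind the tails of NMDA receptors and of AMPA receptor partners, SAPAP proteins join Dlg to Shank, and Homer proteins link Shank to metabotropic receptors and to intracellular calcium channels.

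Library totals ranged from 50339179 to 76939791 counts, of which the 36 genes took 0.608% to 0.788%. Levels are given as CPM, counts scaled to library size with TMM factors. Hdac2 averaged 103 CPM (SD 3.42) over the 8 Htt+/+ Hdac2 WT libraries and 94.4 CPM (SD 2.98) over the 9 Htt+/+ Hdac2 KO libraries. The HttQ111/+ groups averaged 105 CPM (SD 4.76) with Hdac2 WT and 95.2 CPM (SD 3.45) with Hdac2 KO. Fitted changes in Hdac2 with the KO were −0.09 in Htt+/+ (adjusted p = 0.0552) and −0.12 in HttQ111/+ mice (adjusted p = 0.00198), as log2 values from quasi-likelihood tests in edgeR. The counts cover the whole gene, so this check does not resolve the deleted exons. Its paralog Hdac1 rose in both backgrounds, by 0.54 on the log2 scale in Htt+/+ (adjusted p = 7.35e-07) and by 0.49 in HttQ111/+ mice (adjusted p = 5.49e-07). RNA was extracted on dates that nearly follow the Hdac2 genotype. Summed CPM of 6 markers of cortical projection neurons set 3 libraries apart, at 422 in HttQ111/+ Hdac2 WT replicate 7 and at 166 and 130 in Htt+/+ Hdac2 KO replicates 6 and 2, against 5.88 to 86.0 in the other 32. The 8 MSN markers were all detected, summing to between 5049.9 and 8004 CPM.

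The genes covered a wide range of levels. Per kilobase of merged exon, Dlgap3, which encodes SAPAP3, had 98.2 ± 9.07 CPM per kb (SD, n = 8) in Htt+/+ Hdac2 WT striata and Gria1 94.0 ± 4.21. These neighbours lay within 1 SD of each other. Gria2 followed at 64.0 ± 4.50, then Dlg4, which encodes PSD-95, at 56.7 ± 4.01, Grin1 at 52.6 ± 3.48 and Shank3 at 46.0 ± 3.52 CPM per kb. At the other end lay Grin2a at 0.888 ± 0.127, Grin2d at 0.826 ± 0.0604, Grik1 at 0.498 ± 0.103 and Grm2 at 0.244 ± 0.0664 CPM per kb. Within the Homer family, Homer1 had 36.1 ± 5.53 CPM per kb, against 1.93 ± 0.191 for Homer3 and 1.88 ± 0.129 for Homer2. The counts include intronic reads, so per-exon levels of genes with long introns are upper estimates.

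**Figure D1:**
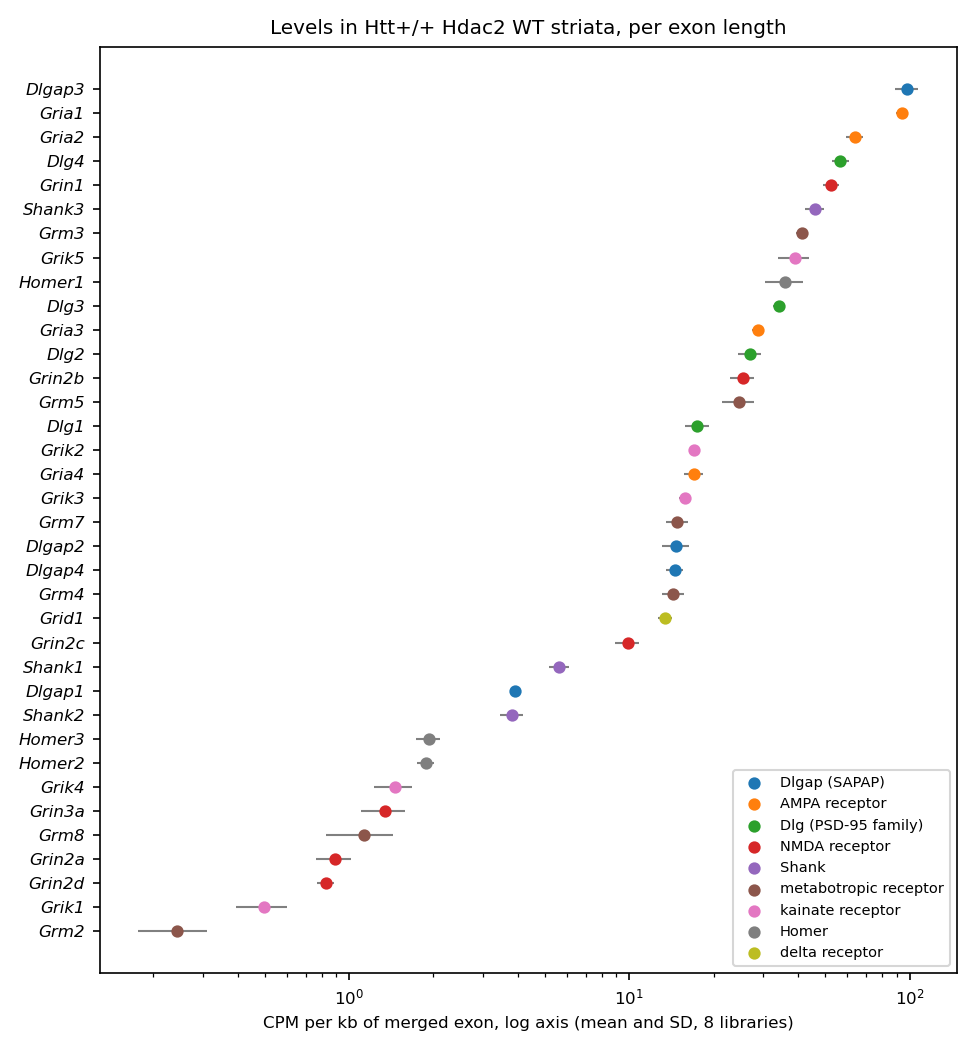
Mean CPM per kb of merged exon (log axis, bars are SD over 8 Htt+/+ Hdac2 WT libraries) for each of the 36 genes, coloured by family. Dlgap3 and Gria1 are highest at 98.2 and 94.0, and Grm2 is lowest at 0.244 CPM per kb.

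Promoter sequence is shown for Homer1, the gene that changed with the HttQ111 allele, for Homer2, a scaffold gene that rose with Hdac2 KO in both backgrounds, and for Grin1, an NMDA receptor subunit that fell with it in both. Each run is the 250 bases before the RefSeq start site on the gene's own strand (RefSeq, GRCm38.p6), in lower case. Capitals mark TGACG, the core of a cAMP response element, and GGGCGG, the core of a GC box, on either strand. The windows lie at chr13:93303507-93303756 (plus strand) for Homer1, chr7:81706926-81707175 (minus strand) for Homer2 and chr2:25319188-25319437 (minus strand) for Grin1.
Homer1: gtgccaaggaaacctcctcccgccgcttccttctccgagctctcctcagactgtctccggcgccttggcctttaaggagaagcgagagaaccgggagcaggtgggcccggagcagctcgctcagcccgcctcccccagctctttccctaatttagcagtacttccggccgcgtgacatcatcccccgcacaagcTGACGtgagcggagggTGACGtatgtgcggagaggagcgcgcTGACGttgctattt
Homer2: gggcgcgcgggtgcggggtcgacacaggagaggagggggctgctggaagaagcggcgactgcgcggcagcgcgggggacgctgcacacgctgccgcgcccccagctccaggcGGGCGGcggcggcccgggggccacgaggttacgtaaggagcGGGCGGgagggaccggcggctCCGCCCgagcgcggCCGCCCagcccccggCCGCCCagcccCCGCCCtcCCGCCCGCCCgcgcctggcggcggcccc
Grin1: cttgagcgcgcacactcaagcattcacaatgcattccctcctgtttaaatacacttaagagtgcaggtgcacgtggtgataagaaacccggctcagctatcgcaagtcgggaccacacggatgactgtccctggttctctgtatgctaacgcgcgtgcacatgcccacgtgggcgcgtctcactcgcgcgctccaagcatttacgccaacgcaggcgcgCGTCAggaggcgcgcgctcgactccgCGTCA

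The Homer1 window held TGACG at 3 positions and no GGGCGG, the Homer2 window held GGGCGG at 8 positions, of which the last 2 overlap, and no TGACG, and the Grin1 window held TGACG at 2 positions. At least 3 TGACG matches occurred in 0.688% of the 32851 RefSeq promoter windows of the same length, and at least 2 in 3.90%. At least 8 GGGCGG matches occurred in 0.155%. Any TGACG was present in 17.8% of all windows and any GGGCGG in 32.7%. Of the 24 member genes with a promoter entry, 5 had TGACG and 15 had GGGCGG in at least 1 window. Counted by window, as the shares over all windows are, 5 of their 38 windows held TGACG and 17 held GGGCGG. None held the full palindrome TGACGTCA, which occurred in 1.55% of all windows. These matches describe letters only, and no binding was measured.

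To see how loss of Hdac2 in MSNs bears on these genes, Hdac2 KO was compared with Hdac2 WT within each Htt genotype. In Htt+/+ mice, 15 of the 36 genes passed an adjusted p of 0.05, 6 higher and 9 lower in Hdac2 KO, where 17.8% of all 17126 genes tested were called. The falls were mainly among receptors (Gria1, Gria3, Grin1, Grin2a, Grid1, Grm4, Grm5 and Grm7, with Dlgap3 the only scaffold). The rises were in Grin2d, Grik2, Grm8, Homer2, Dlg1 and Dlg3. The median log2 fold change over the 36 genes was −0.06, against 0.00 over all genes tested. In HttQ111/+ mice 14 of the 36 passed, 4 higher and 10 lower, where 16.5% of 17169 genes were called, with a median of −0.05 against 0.00. The groups of these comparisons share no libraries, but each fit used all 35 libraries. In both, extraction date nearly follows Hdac2 genotype, so the comparisons are not independent of each other. The same 11 genes passed in the same direction in both, which is 73.3% of the calls in Htt+/+ and 78.6% of those in HttQ111/+ mice. Over all genes these shares were 64.1% and 69%. The fit includes 9 surrogate variables, and its log2 fold change differed from the raw log2 ratio of mean CPM by over 0.1 for 12 of the 36 genes in each background, although every called gene had the same sign in both. CPM values below are not adjusted for these variables.

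**Figure D2:**
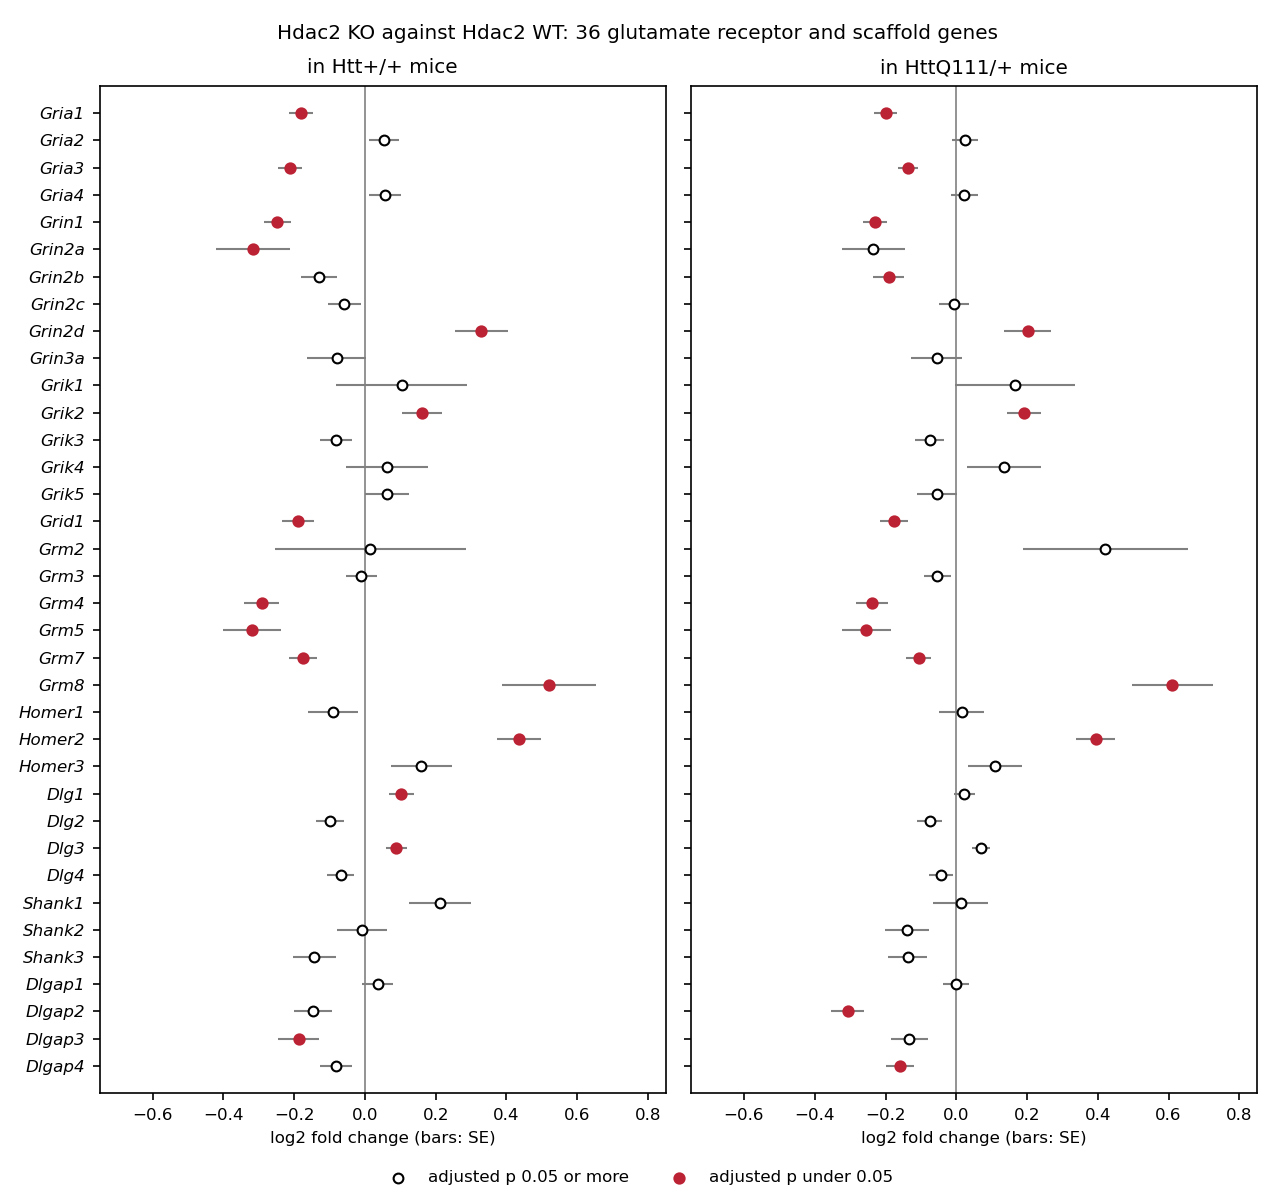
Fitted log2 fold change with Hdac2 KO (points, bars are standard errors) for the 36 genes in Htt+/+ mice (left) and HttQ111/+ mice (right). Filled points passed an adjusted p of 0.05, 15 on the left and 14 on the right, with Grm8 farthest to the right in both, at 0.52 and 0.61.

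Among AMPA receptor subunits, Gria1 and Gria3 fell in both backgrounds, and Gria2 and Gria4 passed in neither. Gria1, a main pore-forming subunit, had 513, 573 and 594 CPM (lowest, median and highest) in Htt+/+ Hdac2 WT and 460, 494 and 515 CPM in Htt+/+ Hdac2 KO libraries. Only the lowest Hdac2 WT library, replicate 9, reached into the KO range. The log2 fold change was −0.18 (standard error 0.035, adjusted p = 0.000317) in Htt+/+ and −0.20 (standard error 0.031, adjusted p = 2.49e-05) in HttQ111/+ mice, where the CPM values were 481, 597 and 626 in Hdac2 WT and 455, 502 and 539 in Hdac2 KO. Gria3, encoded on the X chromosome, had 265 to 306 CPM in Htt+/+ Hdac2 WT and 237 to 258 CPM in Htt+/+ Hdac2 KO libraries, with no overlap between the groups. Its log2 fold change was −0.21 (standard error 0.034, adjusted p = 3.64e-05) there and −0.14 (standard error 0.029, adjusted p = 0.00116) in HttQ111/+ mice. Gria2, the subunit that makes the channel impermeable to calcium once its RNA is edited, had means of 994 CPM in Htt+/+ Hdac2 WT and 982 CPM in Htt+/+ Hdac2 KO striata, with a 95% interval of the log2 difference of −0.03 to 0.14.

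NMDA receptor subunits moved in both directions. Grin1, the subunit present in every NMDA receptor, had 458, 513 and 564 CPM in Htt+/+ Hdac2 WT and 388, 451 and 495 CPM in Htt+/+ Hdac2 KO libraries. In HttQ111/+ mice it had 420, 476 and 529 CPM in Hdac2 WT and 369, 428 and 445 CPM in Hdac2 KO. The ranges overlapped in each background, and the medians lay lower in Hdac2 KO. The log2 fold changes were −0.25 (standard error 0.038, adjusted p = 1.57e-05) and −0.23 (standard error 0.034, adjusted p = 1.11e-05).

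Of the glutamate-binding subunits, Grin2a had 13.02, 15.7 and 20.1 CPM in Htt+/+ Hdac2 WT and 8.49, 12.4 and 15.9 CPM in Htt+/+ Hdac2 KO libraries, at a fitted log2 change of −0.32 (standard error 0.11, adjusted p = 0.0339). In HttQ111/+ mice its value was −0.23 (adjusted p = 0.0737). The Htt+/+ call passed in 8 of 12 alternative analyses. Grin2b, the more abundant of this pair in these striata, had 494, 620 and 687 CPM in HttQ111/+ Hdac2 WT and 343, 481 and 626 CPM in HttQ111/+ Hdac2 KO libraries, which overlapped. It passed in HttQ111/+ mice at −0.19 (standard error 0.044, adjusted p = 0.00261) and was −0.13 (adjusted p = 0.0769) in Htt+/+ mice, at 517, 646 and 700 against 465, 521 and 655 CPM. Neither passed the test of a difference between the backgrounds (interaction adjusted p = 0.97 and 0.938 in edgeR). Grin2d went the other way. It had 5.17, 5.29 and 6.24 CPM in Htt+/+ Hdac2 WT and 6.27, 7.50 and 8.79 CPM in Htt+/+ Hdac2 KO libraries, so the groups did not overlap. The log2 fold change was 0.33 (standard error 0.075, adjusted p = 0.00205), and 0.20 (standard error 0.066, adjusted p = 0.0332) in HttQ111/+ mice. Grin2c and Grin3a passed in neither background.

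Grik2, a kainate receptor subunit, was the only member of its family that passed, rising in both backgrounds. Its CPM was 215, 226 and 235 in Htt+/+ Hdac2 WT against 231, 259 and 280 in Htt+/+ Hdac2 KO libraries, and 165, 191 and 242 against 193, 246 and 276 in HttQ111/+ mice. The log2 fold changes were 0.16 (standard error 0.056, adjusted p = 0.0418) and 0.19 (standard error 0.049, adjusted p = 0.00578). The HttQ111/+ call passed in all 12 alternatives. The Htt+/+ call passed in 10 and was lost without the mice with 1 floxed allele, at 0.075 (adjusted p = 0.280 in edgeR), and without the 3 libraries high in cortical markers, at 0.16 (adjusted p = 0.111), an alternative chosen after seeing the data. Grid1, a synapse-organizing subunit that does not open to glutamate, had a median of 80.2 CPM in Htt+/+ Hdac2 WT and 70.7 CPM in Htt+/+ Hdac2 KO libraries. It fell by 0.19 on the log2 scale (standard error 0.045, adjusted p = 0.00310) in Htt+/+ and by 0.18 (standard error 0.040, adjusted p = 0.00226) in HttQ111/+ mice.

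Of the 6 metabotropic receptors, Grm4, Grm5 and Grm7 fell and Grm8 rose in both backgrounds, while Grm2 and Grm3 passed in neither. Grm5, the receptor that couples to phospholipase C and binds Homer, had 183, 265 and 285 CPM in Htt+/+ Hdac2 WT and 157, 190 and 218 CPM in Htt+/+ Hdac2 KO libraries. All but the lowest Hdac2 WT library, replicate 9, lay above the KO range. In HttQ111/+ mice the ranges were 152 to 267 CPM and 131 to 263 CPM and overlapped over most of their width. The log2 fold changes were −0.32 (standard error 0.082, adjusted p = 0.00602) and −0.25 (standard error 0.070, adjusted p = 0.0107). The Htt+/+ call on Grm5 passed in 10 of 12 alternatives. The HttQ111/+ call passed in 6 and was lost, among others, in the fit without covariates (adjusted p = 0.148 in edgeR) and with the replicate block (0.262).

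Grm4, Grm7 and Grm8 encode the receptors of a class found mostly on axon terminals. Grm4 fell by 0.29 on the log2 scale (standard error 0.050, adjusted p = 8.07e-05) in Htt+/+ mice, from a mean of 85.8 to 72.3 CPM. In HttQ111/+ mice its fitted value was −0.24 (standard error 0.045, adjusted p = 0.000283), whereas the means of 72.6 and 68.3 CPM give a raw log2 ratio of −0.09, and that call passed in 7 of 12 alternatives. Grm7 had 69.0, 89.0 and 94.4 CPM in Htt+/+ Hdac2 WT and 73.2, 77.5 and 91.8 CPM in Htt+/+ Hdac2 KO libraries. In HttQ111/+ mice it had 65.5, 89.1 and 98.0 CPM in Hdac2 WT and 67.1, 78.5 and 90.8 CPM in Hdac2 KO. The KO ranges lay inside the WT ranges, and the medians were lower in Hdac2 KO. The fitted falls of Grm7 were 0.17 (standard error 0.040, adjusted p = 0.00210) and 0.11 (standard error 0.035, adjusted p = 0.0352), and they passed in 7 and 4 of 12 alternatives. Grm8 had 6.06, 11.3 and 14.7 CPM in Htt+/+ Hdac2 WT and 11.8, 12.6 and 16.8 CPM in Htt+/+ Hdac2 KO libraries. In HttQ111/+ mice it had 9.87, 11.4 and 17.1 CPM in Hdac2 WT and 13.9, 15.9 and 19.6 CPM in Hdac2 KO. The groups overlapped in both backgrounds, and the fitted log2 fold changes of 0.52 (standard error 0.13, adjusted p = 0.00562) and 0.61 (standard error 0.11, adjusted p = 0.000263) exceeded the raw log2 ratios of 0.25 and 0.41. The rise in Htt+/+ mice passed in only 4 of 12 alternative analyses, with adjusted p values of 0.0957 to 0.296 in the 7 besides the fit with extraction date that lost it.

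The Homer family was split. Homer2 had 21.6, 23.5 and 26.7 CPM in Htt+/+ Hdac2 WT and 27.2, 35.6 and 39.2 CPM in Htt+/+ Hdac2 KO libraries, with no overlap between the groups. In HttQ111/+ mice it had 20.3, 22.4 and 37.2 CPM in Hdac2 WT and 22.0, 31.5 and 38.0 CPM in Hdac2 KO. The Hdac2 WT library at 37.2 CPM is replicate 7, the library highest in cortical markers, and the other 6 lay between 20.3 and 24.0 CPM. The log2 fold changes were 0.44 (standard error 0.062, adjusted p = 4.91e-06) and 0.39 (standard error 0.054, adjusted p = 4.09e-06). The rise in Htt+/+ mice passed in all 12 alternatives, including the fit with extraction date. The rise in HttQ111/+ mice passed in 10 of 12. It was lost with extraction date and with the replicate block (adjusted p = 0.108 in edgeR). Homer3, at means of 6.63 and 7.79 CPM in Htt+/+ mice, had log2 fold changes of 0.16 (adjusted p = 0.229) and 0.11 (adjusted p = 0.373). Homer1 had −0.09 (adjusted p = 0.453) and 0.02 (adjusted p = 0.917).

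**Figure D3:**
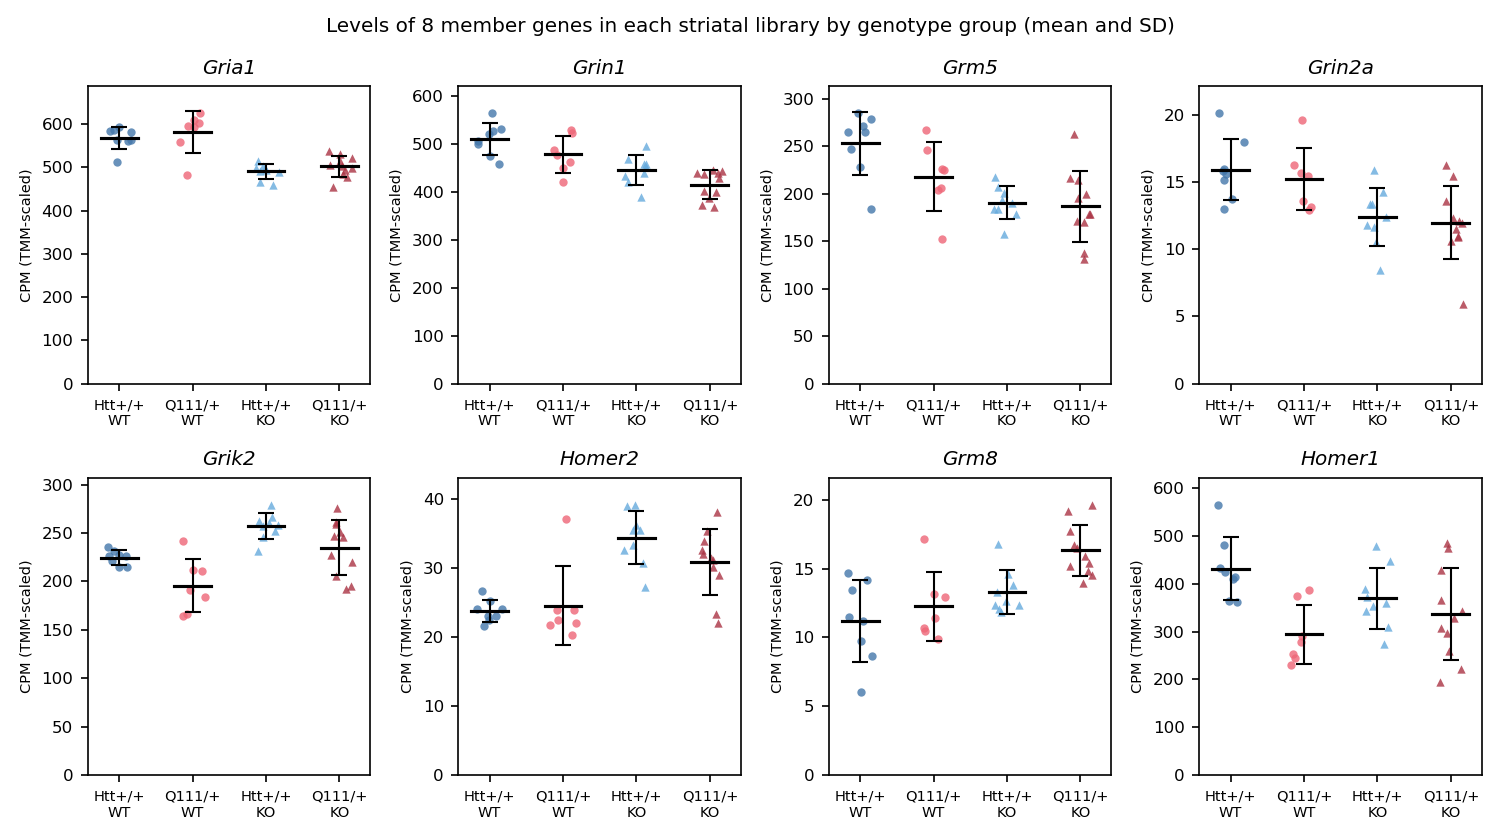
TMM-scaled CPM of 8 genes in each of the 35 libraries by genotype group (points are libraries, lines and bars are mean and SD, axes start at 0). Homer2 lies at 27.2 to 39.2 in Htt+/+ Hdac2 KO and 21.6 to 26.7 in Htt+/+ Hdac2 WT libraries, and Homer1 is lowest on average in HttQ111/+ Hdac2 WT.

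Among the PSD-95 family, Dlg1 (SAP97) and Dlg3 (SAP102) rose, by 0.10 (standard error 0.035, adjusted p = 0.0356) and 0.09 (standard error 0.030, adjusted p = 0.0354) on the log2 scale in Htt+/+ mice, and passed in 5 and 2 of the 12 alternatives. Dlg1 had 175, 179 and 226 CPM in Htt+/+ Hdac2 WT and 183, 197 and 217 CPM in Htt+/+ Hdac2 KO libraries. Dlg3 had 184, 198 and 215 against 192, 197 and 226 CPM. Both overlapped widely, and for Dlg3 the medians were nearly equal. Dlg4, the most abundant of its family, had means of 751 and 743 CPM in Htt+/+ and 685 and 687 CPM in HttQ111/+ mice, with 95% intervals of the log2 difference of −0.14 to 0.01 and −0.11 to 0.02. No Shank gene passed. Shank3, a scaffold joining SAPAP and Homer, had fitted values of −0.14 (adjusted p = 0.110) and −0.14 (adjusted p = 0.0821).

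SAPAP genes that passed fell. Dlgap3 was fitted at −0.19 (log2, standard error 0.059, adjusted p = 0.0234) in Htt+/+ mice, although its means were 444 ± 41.0 and 440 ± 60.7 CPM (SD, n = 8 and n = 9). It passed in 5 of 12 alternatives, with a value of −0.02 (adjusted p = 0.923) in the fit without covariates. Dlgap2 had 74.5, 82.6 and 100.04 CPM in HttQ111/+ Hdac2 WT and 48.4, 67.4 and 85.9 CPM in HttQ111/+ Hdac2 KO libraries, overlapping, at a fitted log2 change of −0.31 (standard error 0.046, adjusted p = 1.55e-05). In Htt+/+ mice it was −0.15 (adjusted p = 0.0519). Dlgap4 had 111, 122 and 130.4 CPM in HttQ111/+ Hdac2 WT and 95.8, 113 and 119 CPM in HttQ111/+ Hdac2 KO libraries. It fell by 0.16 on the log2 scale (standard error 0.040, adjusted p = 0.00509) there and passed in 9 of 12 alternatives. Dlgap1 passed in neither.

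A test of the interaction of the genotypes called 0 of the 36 genes with edgeR's quasi-likelihood test, where 0.00577% of 17346 genes were called (1 gene). At an unadjusted p under 0.05 the count was 1 of 36, where 5.63% of all genes were, Dlgap2 at −0.16 (standard error 0.062, p = 0.0162 unadjusted and 0.866 adjusted in edgeR), and DESeq2 called 0. The widest of the 36 intervals of the interaction, for Grm2, ran from −0.21 to 1.02.

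In bulk RNA, fewer cells of a type and less RNA per cell cannot be told apart. MSN markers did not move as a block with Hdac2 KO, as 2 of 8 rose and 2 fell in Htt+/+ mice and 2 rose and 0 fell in HttQ111/+ mice. Their summed CPM had overlapping ranges of 6985 to 7995 and 6771 to 8004 in Htt+/+ Hdac2 WT and KO mice. In Htt+/+ mice 1 of 5 choroid plexus markers was lower in Hdac2 KO, Ttr at −3.12 (adjusted p = 0.0359 in edgeR), and 1 of 7 interneuron markers, Nos1 at −0.20 (adjusted p = 0.0287). Neither list had a call in HttQ111/+ mice. None of the 6 cortical markers passed in either comparison, and Emx1, 1 of the 6, was at 0 CPM in at least 1 library and was not tested. The part of these markers in the calls was not tested. Without the 3 libraries high in cortical markers, an alternative chosen after seeing the data, 13 genes passed in each background. In each, 12 of the original calls were among them. The share of all genes called in that fit is not given here.

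Days on which RNA of both Hdac2 genotypes was extracted gave few libraries. On 27 May, 1 Htt+/+ Hdac2 KO library could be set beside 3 Htt+/+ Hdac2 WT libraries, and it lay below them for 12 genes, above for 15 and between for 9. Homer2 was at 39.0 CPM there against 22.5 to 24.0, Grik2 at 280 against 215 to 227, Gria1 at 489 against 562 to 584 and Grm5 at 184 against 265 to 285. These had the direction of the full comparison, whereas Grin1 at 495 CPM lay within 474 to 528. On 25 May, 1 HttQ111/+ Hdac2 KO library against 2 HttQ111/+ Hdac2 WT libraries lay below for 11 genes, above for 13 and between for 12. In that library Grin1 was below and Grik2 above, Gria1 and Homer2 were between, and Grm5 was above at 263 CPM against 152 and 246. The Hdac2 WT values of 481 CPM for Gria1, 37.2 for Homer2 and 152 for Grm5 came from replicate 7. That replicate had the highest sum of cortical markers, at 422 CPM, and its part in these positions was not tested. When the model held extraction date and no surrogate variables, Grik2 and Homer2 passed in Htt+/+ mice and Grik2 in HttQ111/+ mice. That model had only these days to separate date from genotype, with 1 Hdac2 KO library on each. Extraction date and Hdac2 genotype therefore cannot be told apart for any of the calls.

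To examine the effect of the HttQ111 allele, HttQ111/+ was compared with Htt+/+ mice within each Hdac2 genotype. Homer1 was the only member that passed. Its gene lies at chr13:93303757-93404129 on the plus strand of GRCm38 and encodes both the long coupling forms and the short activity-induced form, Homer1a, which uncouples the others. The counts do not separate these forms. Homer1 had 362, 420 and 566 CPM in Htt+/+ Hdac2 WT and 231, 279 and 387 CPM in HttQ111/+ Hdac2 WT libraries. Of the 7 carriers, 5 lay below every Htt+/+ Hdac2 WT library and the other 2 lay within their range. The fitted log2 fold change was −0.33 (standard error 0.068, adjusted p = 0.0222), and the raw log2 ratio of means was −0.55. Homer1 remained below in all 12 alternative analyses, at −0.60 to −0.33, but did not pass in 5 of them. These were the fits without covariates (adjusted p = 0.0845 in edgeR), with sex (0.0865), with the replicate block (0.106), with only the groups compared (0.185) and with males alone (0.0618). The fits without covariates, with sex and with the replicate block held no surrogate variables. Homer1 was at −0.55 without covariates and at −0.55 with sex. Across the 36 genes this was 1 call, where 0.403% of 17133 genes were called, and the median was −0.01 against 0.00.

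In Hdac2 KO mice 0 of the 36 genes passed in edgeR's quasi-likelihood test, where 0.00584% of 17110 genes were called (1 gene). At an unadjusted p under 0.05 the count was 6 of 36, where 7.52% of all genes tested were, and DESeq2 called 1, Homer1. Homer1 had 275, 360 and 479 CPM in Htt+/+ Hdac2 KO and 196, 328 and 485 CPM in HttQ111/+ Hdac2 KO libraries, so the groups overlapped widely. The log2 fold change was −0.22 (standard error 0.054, adjusted p = 0.155 in edgeR and 0.0342 in DESeq2). The effect of the allele on Homer1 did not pass a test of difference between the Hdac2 genotypes (interaction 0.11, standard error 0.086, adjusted p = 0.926). Averaged over both, it was −0.28 (standard error 0.044, adjusted p = 0.000809), and Homer1 was the only member called where 1.27% of all 17346 genes were.

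**Figure D4:**
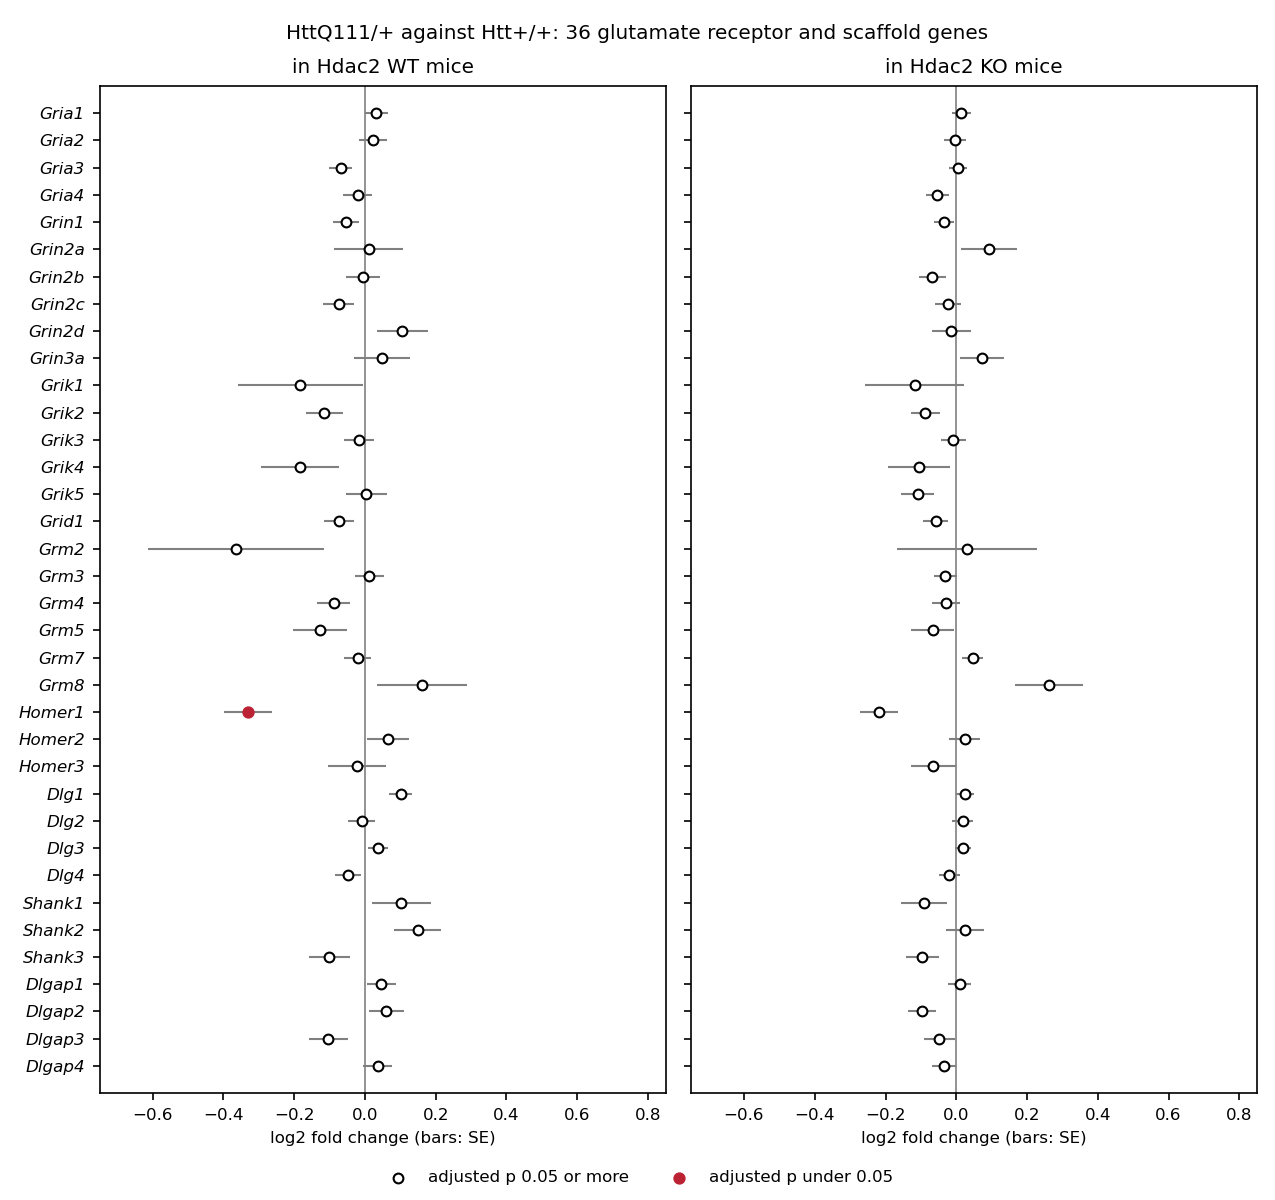
Fitted log2 fold change with the HttQ111 allele (points, bars are standard errors) for the 36 genes in Hdac2 WT mice (left) and Hdac2 KO mice (right). The only filled point, past an adjusted p of 0.05, is Homer1 at −0.33 in Hdac2 WT mice.

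Mouse IDs begin with A, V or Z, and carriers with a V had longer repeats. In V mice the Hdac2 WT carriers had 231 to 279 CPM of Homer1 (n = 3, 131 to 140 CAG) and the Htt+/+ Hdac2 WT mice 362 to 566 CPM (n = 5), with no overlap. In A and Z mice carriers had 246 to 387 CPM (n = 4, 110 to 113 CAG) against 365 to 481 CPM (n = 3), and the groups overlapped. Among Hdac2 KO mice, V carriers had 196 to 343 CPM (n = 5, 131 to 144 CAG) and A and Z carriers 308 to 485 CPM (n = 6, 110 to 118 CAG), whereas Htt+/+ Hdac2 KO mice had 309 to 390 CPM (V, n = 3) and 275 to 479 CPM (A and Z, n = 6). Repeat length and ID letter cannot be told apart among carriers. The raw log2 ratio in Hdac2 KO mice was −0.41 in V mice and 0.07 in A and Z mice. By sex, it was −0.47 in males (4 carriers, 5 Htt+/+ mice) and −0.67 in females (3 and 3) with Hdac2 WT. With Hdac2 KO it was −0.42 in males (8 and 5) and 0.39 in females (3 and 4). All female carriers with Hdac2 KO were A or Z mice, whereas the male ones included all the V mice. Sex was thus not separated from ID letter and repeat length in these ratios.

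**Figure D5:**
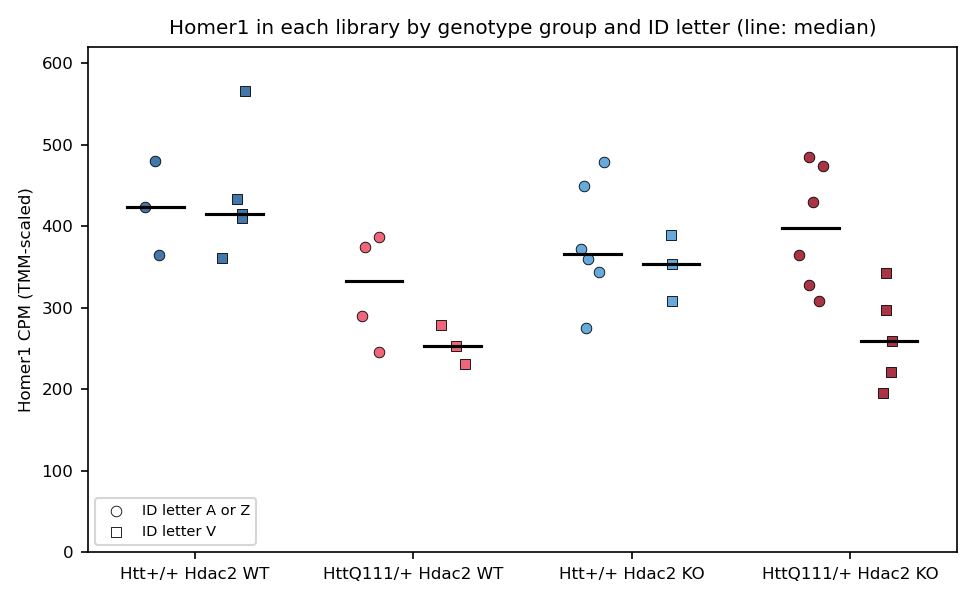
TMM-scaled CPM of Homer1 in each library by genotype group, with circles for mice with ID letters A or Z, squares for V, and a line at each median. V carriers lie at 231 to 279 with Hdac2 WT and 196 to 343 with Hdac2 KO, and Htt+/+ mice at 275 to 566.

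MSN markers fell with the HttQ111 allele in the same Hdac2 WT comparison, as 4 of 8 passed, all lower, and 1 of 6 astrocyte markers also passed as lower. Their sum was 6985 to 7995 CPM in Htt+/+ Hdac2 WT and 5050 to 7029 CPM in HttQ111/+ Hdac2 WT mice, and their part in the Homer1 result was not tested. Without the 3 libraries high in cortical markers Homer1 was at −0.36 (adjusted p = 0.0103).

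The other 35 members did not pass with the HttQ111 allele. Shank3 had 391, 419 and 495 CPM in Htt+/+ Hdac2 WT and 283, 366 and 399 CPM in HttQ111/+ Hdac2 WT libraries, and 6 of the 7 carriers lay below every Htt+/+ Hdac2 WT library. Its raw log2 ratio was −0.27 and its fitted value −0.10 (adjusted p = 0.551 in edgeR). Dlgap3 and Grm4 likewise had raw ratios of −0.26 and −0.24 and fitted values of −0.10 and −0.09. Grm2, the least abundant, was fitted at −0.36 (adjusted p = 0.648). In Hdac2 WT mice 5 of 36 had an unadjusted p under 0.05, where 10.9% of all genes tested did, namely Gria3, Grik2, Dlg1 and Shank2 besides Homer1. Dlg1 had the lowest of these p values after Homer1, at 0.10 (standard error 0.032, adjusted p = 0.200 in edgeR). Grm8 was at 0.16 (95% interval −0.09 to 0.41) in Hdac2 WT and 0.26 (0.07 to 0.45, adjusted p = 0.478) in Hdac2 KO mice.

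HttQ111/+ Hdac2 KO mice were compared with Htt+/+ Hdac2 WT mice, a comparison that shares its control libraries with those above. Here 18 of the 36 genes passed, 5 higher and 13 lower, where 21.2% of 17088 genes were called, and the median was −0.07 against 0.00. Those higher were Grin2d, Grm8, Homer2, Dlg1 and Dlg3, and those lower were Gria1, Gria3, Grin1, Grin2b, Grid1, Grm4, Grm5, Grm7, Homer1, Shank3, Dlgap2, Dlgap3 and Dlgap4. Shank3 had 391, 419 and 495 CPM in Htt+/+ Hdac2 WT and 255, 335 and 490 CPM in HttQ111/+ Hdac2 KO libraries, overlapping widely, at a fitted log2 change of −0.24 (standard error 0.058, adjusted p = 0.00224). Homer1 was at −0.32 (standard error 0.069, adjusted p = 0.00103). Grin1 had 458 to 564 CPM against 369 to 445 CPM, with no overlap between the groups, at −0.29 (standard error 0.036, adjusted p = 5.84e-07). Grm8 was farthest from 0, at 0.77 (standard error 0.13, adjusted p = 2.77e-05). Calls on Grm7, Dlg1, Dlg3, Dlgap4, Shank3 and Homer1 in this comparison passed in 4, 6, 6, 8, 8 and 9 of 12 alternatives. MSN markers moved with it, as 6 of 8 were lower and 1 higher, and 2 of 6 astrocyte markers were lower. The MSN markers summed to 6985 to 7995 CPM in Htt+/+ Hdac2 WT and 5708 to 7321 CPM in HttQ111/+ Hdac2 KO libraries, and their part in the calls was not tested.

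Of the 36 genes, 16 passed in no comparison. They were Gria2, Gria4, Grin2c, Grin3a, Grik1, Grik3, Grik4, Grik5, Grm2, Grm3, Homer3, Dlg2, Dlg4, Shank1, Shank2 and Dlgap1. Grm2 had 0.620 to 3.49 CPM over all libraries, and its interval of −0.51 to 0.54 in Htt+/+ mice shows that a change with Hdac2 KO was poorly resolved at that depth.

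Another 47 genes of the glutamatergic postsynapse, namely auxiliary subunits, kinases, adhesion and trafficking proteins and remaining receptors, were counted alongside. Of 46 tested in Htt+/+ mice, 21 passed with Hdac2 KO (6 higher and 15 lower), where 17.8% of all genes tested were called. Grin3b, a glycine-binding NMDA receptor subunit, was at −1.38 (standard error 0.40, adjusted p = 0.0148), and Gsg1l, an AMPA receptor auxiliary subunit, at −0.54 (standard error 0.065, adjusted p = 3.79e-07). In HttQ111/+ mice 22 of 46 passed (6 higher and 16 lower), where 16.5% of all genes were called, including Gsg1l at −0.49 (adjusted p = 2.58e-07) and Lrrc4, a postsynaptic adhesion protein, at −0.30 (adjusted p = 3.16e-06) in edgeR.

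With the HttQ111 allele 3 of 46 passed in Hdac2 WT mice, where 0.403% of all genes were called. Neto2, an auxiliary subunit of kainate receptors, was at −0.35 (standard error 0.083, adjusted p = 0.0497), Baiap2, a scaffold, at −0.14 (standard error 0.033, adjusted p = 0.0474), and Lrrtm4, an adhesion protein, at 0.22 (standard error 0.043, adjusted p = 0.0133). The same 3 passed in the average over both Hdac2 genotypes. Of 45 tested in Hdac2 KO mice 0 passed in edgeR, with 7 at an unadjusted p under 0.05 (7.52% of all genes), and the interaction called 0 of 46, with 4 at an unadjusted p under 0.05 (5.63% of all genes). HttQ111/+ Hdac2 KO mice had 26 of 46 past the threshold against Htt+/+ Hdac2 WT mice (6 higher and 20 lower), where 21.2% of all genes were called. They included Grin3b at −1.32 (adjusted p = 0.0105), Gsg1l at −0.65 (adjusted p = 2.74e-09) and Begain, a scaffold, at 0.41 (adjusted p = 1.85e-07) in edgeR.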

How the data were processed

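The authors made stranded mRNA libraries with ERCC spike-ins, aligned paired reads to GRCm38 (Ensembl annotation) with GSNAP, and tabulated uniquely aligned reads across entire gene intervals using bedtools multibamcov. Each library came from 1 mouse, libraries were pooled for sequencing, and the deposited values are unnormalized counts. The authors left out 1 further library for signs of DNA contamination. Introns are included, and 23 of the 36 genes overlap another gene in the table. Whether strand was used in counting is not given in the sources used here.

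Entries left out were 92 ERCC standards, 2 mitochondrial rRNAs and 6152 genes no longer than 250 nt. Testing required 6 or more counts throughout all libraries of some group in the comparison. Counts were scaled by TMM and all 35 libraries were fitted by group with 9 surrogate variables in edgeR 4.0.16 (older quasi-likelihood form), sva 3.50.0, limma 3.58.1 and R 4.3.3, after the authors' methods. Adjusted p values are Benjamini-Hochberg values across every tested gene, with a threshold of 0.05. At this threshold the authors reported smaller shares of genes called with Hdac2 KO. The shares found here were 17.8% in Htt+/+ and 16.5% in HttQ111/+ mice, and the cause of this difference was not tested. DESeq2 1.42.0 served as an alternative. CPM is raw and TMM-scaled, and fitted log2 fold changes account for the surrogate variables. Standard errors were derived from the F statistic, and 95% intervals are normal. Overlap of ranges between groups was examined for the member genes and not over all genes. The fit was tested on simulated data.

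Groups, sex, dates and repeat lengths came from the labels, and floxed status from the authors' sample table. Each library is 1 mouse. The closest pair of libraries in a group differed by a chi-square of 7.96 per gene, so none was a duplicate. Library totals of 50339179 to 76939791 counts gave the 36 genes 334951 to 562354 counts per library. Exon lengths came from GENCODE M21 and promoters from RefSeq (GRCm38.p6).

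The members and gene lists were chosen with earlier results of these data known. All 36 members are named, and for each member past the threshold CPM values are given for the groups of at least 1 comparison. Of 47 other postsynaptic genes, up to 3 per comparison with the largest change past the threshold are named. The values of 1 gene that this rule names are not reported here. Alternatives covered covariates, the replicate block, scaling, test, filter and libraries. Fits with sex, extraction date, ID letter or the replicate block held that covariate in place of the surrogate variables. Leaving out the 3 libraries high in cortical markers was chosen after seeing the data.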

Additional observations from a re-analysis of the deposited data

Results flagged for a closer look

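Across the 36 genes and the 3 groups of 4 to 10 libraries, 14 of 108 combinations had a library standing far from the rest by Dixon's criterion, where chance gives about 1 in 20. Of these, 11 were high and 3 low.

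Htt+/+ Hdac2 WT replicate 9 accounted for 5. Gria1 was at 513 CPM (the other libraries of the group 562 to 594), Grm7 at 69.0 (85.8 to 94.4), Grik5 at 259 (174 to 212), Dlg4 at 862 (691 to 765) and Shank3 at 495 (391 to 429).

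HttQ111/+ Hdac2 WT replicate 7, which had the highest sum of cortical markers, accounted for another 5. Grm2 was at 3.49 CPM (0.620 to 1.60 in the others), Homer2 at 37.2 (20.3 to 24.0), Shank1 at 126 (50.4 to 63.9), Dlgap1 at 104 (65.1 to 71.9) and Grm7 at 65.5 (85.7 to 98.0). The part of cortical RNA in these values was not tested.

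In Htt+/+ Hdac2 KO replicate 4, Grm7 was at 91.8 CPM (73.2 to 79.6 in the others) and Dlg3 at 226 (192 to 209). Homer3 was at 8.84 CPM in Htt+/+ Hdac2 KO replicate 6 (7.22 to 8.02) and at 7.98 in Htt+/+ Hdac2 WT replicate 4 (5.84 to 6.83).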

How the results depend on the processing

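The model with extraction date left 2 of 15 genes past the threshold for Hdac2 KO in Htt+/+ mice, 1 of 14 in HttQ111/+ mice and 1 of 18 for HttQ111/+ Hdac2 KO against Htt+/+ Hdac2 WT. It turned Dlg3 (−0.0085) and Dlgap3 (0.0885) in Htt+/+ and Grm5 (0.0445) in HttQ111/+ mice. Leaving extraction date aside, 6 of 15, 5 of 14 and 10 of 18 calls passed in every other alternative. With the replicate block the count for Hdac2 KO in HttQ111/+ mice was 9. For the HttQ111 allele in Hdac2 WT mice the count of 1 became 0 without covariates, with sex, with the replicate block, with only the groups compared and with males alone, 3 with extraction date, 6 with ID letter and 3 without the mice with 1 floxed allele. DESeq2 gave 1 in Hdac2 KO mice. Averaged over Hdac2 genotypes the count of 1 became 0 with sex, 3 with extraction date, 6 with ID letter, 7 with the replicate block and 3 without the mice with 1 floxed allele. The fit without covariates gave 1 that was not Homer1. The cause of these differences was not tested. The shares of all genes called in these fits are not given beside the counts. The counts therefore do not show a change particular to the member genes.

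The main fit did not pair samples by replicate number. The 45 same-number pairs had correlations of −0.297 to 0.449, with a median of 0.0471 against −0.0107 for other pairs. Of these pairs 16 were over 0.1, and 9 of 35 libraries correlated best with their own number. These values do not decide whether libraries of the same number are related. Of 49 called values, 49 kept their call with DESeq2, 48 with RLE scaling and 46 without the count filter. Member counts per library ranged from 35 to 86443, and 1 gene fell under 100 counts in some library.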
